A study of Saccharomyces cerevisiae with 12 samples.

Results

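The genes described here are 34 genes of the RAD group and their close partners in Saccharomyces cerevisiae, out of 5798 ORFs in the profiles. They were taken by name alone: 28 genes called RAD followed by a number, plus MRE11, XRS2, SAE2, SGS1, MMS4 and MUS81, with RAD3 and RAD6 left out. Their poly(A) sites were mapped in 2 deletion strains by 3′ READS, a sequencing method that reads fragments of polyadenylated RNA from the tail into the transcript. The rpb4Δ strain has the genotype RPB3::RPB3-3xFLAG NAT, RPB4::HIS3 and lacks Rpb4, a subunit of RNA polymerase II that can leave the enzyme. The ubp8Δ strain has the genotype RPB3::RPB3-3xFLAG NAT, UBP8::HIS3 and lacks Ubp8, the ubiquitin protease of the SAGA coactivator. Both strains therefore carry a FLAG tag on the Pol II subunit Rpb3 and the HIS3 marker in place of the deleted gene, and both were grown in YPD to mid-log phase. No DNA-damaging agent is named in the labels. Neither strain is wild-type. The comparison asks how the 3′ ends of the same genes differ between these 2 strains, and each difference is given as rpb4Δ over or minus ubp8Δ.

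RAD genes were named for the radiation sensitivity of their mutants, and they fall into several repair pathways. Nucleotide excision repair cuts out a short stretch of DNA around a bulky lesion. Homologous recombination resects a broken end and copies the missing sequence from an intact partner, damage tolerance lets replication pass a lesion, and checkpoint proteins hold the cell cycle while damage remains. Many of these proteins work as complexes of a few subunits. The mRNAs of several RAD genes are scarce in undamaged cells, and some are induced by damage.

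For each strain the authors pooled 2 biological replicates into 1 profile, so there is no replicate error, no test between the strains was possible, and a gene is called only by the size of its difference. The signal in a window of 400 nt that begins after the stop codon is given in RPM, reads relative to the library total. Within a rounding tolerance of 0.0051 RPM, all highest-position values below 60 RPM were whole multiples of 0.395 RPM in rpb4Δ and 0.0614 RPM in ubp8Δ, which was taken as the value of 1 read and corresponds to 2529376 and 16276307 reads in the pooled rpb4Δ and ubp8Δ libraries. The ubp8Δ library was thus 6.43 times deeper. Intervals for a single gene or a share of reads are 95% intervals from these reads. They cover counting error only, since the replicates of each strain are pooled. PCR copies of 1 molecule are counted as separate reads, so these intervals can be too narrow. An interval of a median over genes is a 95% order-statistic interval that reflects the spread between genes, which are not replicates. The deleted genes matched the labels. The RPB4 ORF had 0 reads in rpb4Δ and 244 in ubp8Δ, and the UBP8 ORF had 12 reads in rpb4Δ and 0 in ubp8Δ.

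The window signal of the 34 genes had a median of 28.7 RPM in rpb4Δ and 21.4 RPM in ubp8Δ, against 30.8 and 29.1 RPM over all ORFs in rpb4Δ and ubp8Δ. Of the 34 genes, 28 had a mean of at least 4 RPM over both strains, the minimum for a level comparison. The median of these 28 was 33.8 RPM in rpb4Δ and 27.85 RPM in ubp8Δ. Over the 4811 ORFs past the same minimum it was 45.9 RPM in rpb4Δ and 42.9 RPM in ubp8Δ. Among these 28, 7 genes had at least 2-fold higher window signal in rpb4Δ (RAD9, RAD52, RAD33, RAD2, RAD18, XRS2 and MUS81), beside 17.7% of 4811 ORFs. Another 2 genes, RAD57 and RAD28, had at least 2-fold lower signal in rpb4Δ, beside 16.6% of ORFs. The ratios of 12 of the 28 genes stayed within 1.5-fold in either direction, beside 43.0% of ORFs. The median log2 ratio over the 28 genes was 0.32 (order-statistic interval over genes -0.10 to 0.84), against 0.06 over all ORFs. In cultures of many cells, fewer cells with an mRNA and less of it in each cell cannot be told apart.

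All 12 nucleotide excision repair genes passed the minimum, and RAD16, RAD33 and RAD7 among them had the 3 highest levels of the 34 genes in rpb4Δ. In ubp8Δ the nuclease gene RAD27 came second, after RAD16. RAD16, the ATPase of the Rad7-Rad16 complex that recognizes damage in DNA that is not transcribed, was the highest in both strains, with 421 RPM in rpb4Δ and 702 RPM in ubp8Δ. RAD7, its partner, had 169 RPM in rpb4Δ and 150.4 RPM in ubp8Δ. The complex partners thus both had high signal, with that of RAD16 lower in rpb4Δ (ratio 0.60, interval 0.56 to 0.64) and that of RAD7 about equal (ratio 1.13). RAD33, which encodes a small partner of Rad4 and Rad23, had 406 RPM in rpb4Δ against 137 RPM in ubp8Δ, a 2.96-fold higher signal (interval 2.75 to 3.19). RAD23, whose protein stabilizes Rad4, had 95.3 RPM in rpb4Δ and 49.0 RPM in ubp8Δ, just under 2-fold. RAD4 itself, the damage-recognition protein, stood the other way, with 49.8 RPM in rpb4Δ and 70.5 RPM in ubp8Δ. The 3 genes of this recognition complex therefore did not share a direction. RAD34, a relative of RAD4 with a role in the repair of ribosomal DNA, had 86.2 RPM in rpb4Δ and 48.2 RPM in ubp8Δ.

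The other excision repair genes showed the same mixture. RAD14, which binds the lesion, had 83.5 RPM in rpb4Δ and 89.4 RPM in ubp8Δ. RAD1 and RAD10 encode the 2 subunits of the nuclease that cuts on the 5′ side of the lesion. RAD1 had 21.8 RPM in rpb4Δ and 35.7 RPM in ubp8Δ, while RAD10 had 30.4 RPM in rpb4Δ and 20.1 RPM in ubp8Δ, so the subunits stood in opposite directions. RAD2, the nuclease of the 3′ side, had 36.0 RPM in rpb4Δ against 13.9 RPM in ubp8Δ, a ratio of 2.59 (interval 2.01 to 3.32). RAD26 and RAD28 are the yeast relatives of the human Cockayne syndrome proteins CSB and CSA, and Rad26 acts at stalled Pol II. RAD26 had 22.95 RPM in rpb4Δ and 17.02 RPM in ubp8Δ, with an interval of the ratio that includes 1. RAD28 had 9.11 RPM in rpb4Δ against 22.7 RPM in ubp8Δ, a ratio of 0.40 (interval 0.25 to 0.61), the lowest in this group.

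Among the recombination genes the spread was wider. RAD52, which mediates strand exchange and anneals DNA strands, had 136.8 RPM in rpb4Δ against 33.5 RPM in ubp8Δ, a 4.08-fold higher signal (interval 3.56 to 4.68) from 346 and 545 reads in rpb4Δ and ubp8Δ. RAD54, a DNA translocase that acts during strand exchange, had 89.4 RPM in rpb4Δ and 68.2 RPM in ubp8Δ. RAD55 and RAD57 encode a dimer that assists strand exchange. RAD57 had 3.57 RPM (9 reads) in rpb4Δ and 11.25 RPM (183 reads) in ubp8Δ, a ratio of 0.32 (interval 0.14 to 0.61). RAD55 had 3.16 RPM in rpb4Δ, 8 reads that all lay at 67 nt, and 0 reads in ubp8Δ. Against the 3 reads that a count of 0 allows, the ratio was 17.1. Its lower bound of 10.98 treats the 8 reads as separate molecules, but reads at 1 nucleotide can be PCR copies of 1 molecule. At a mean of 1.58 RPM, RAD55 was also under the minimum for a level comparison. RAD59, a relative of RAD52, had 0 reads in rpb4Δ and 1 read (0.06 RPM) in ubp8Δ. Most of the reads of RAD55 and RAD59 lay inside the ORF and not in the window.

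The end resection genes were of medium to low signal. RAD50, MRE11 and XRS2 encode the complex that holds and trims a broken end. RAD50 had 47.05 RPM in rpb4Δ and 36.0 RPM in ubp8Δ, and MRE11, the nuclease, had 29.3 RPM in both. XRS2, the subunit that links the complex to the checkpoint, had 18.2 RPM (46 reads) in rpb4Δ against 7.42 RPM (121 reads) in ubp8Δ, a ratio of 2.45 (interval 1.70 to 3.46). SAE2, the cofactor that stimulates the nuclease, was close to undetected, with 1 read (0.40 RPM) in rpb4Δ and 20 reads (1.22 RPM) in ubp8Δ, and its ratio of 0.33 had an interval of 0.01 to 2.01.

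The damage tolerance, checkpoint and processing genes completed the set. RAD30, the polymerase eta that copies past ultraviolet lesions, had 38.4 RPM in rpb4Δ and 25.1 RPM in ubp8Δ. The ubiquitin ligase genes RAD5 and RAD18 act on the replication clamp. RAD5 had 15.4 RPM in rpb4Δ and 13.15 RPM in ubp8Δ, and RAD18 had 5.94 RPM (15 reads) in rpb4Δ and 2.38 RPM (39 reads) in ubp8Δ, a ratio of 2.50 (interval 1.27 to 4.59). RAD9, the adaptor that brings the checkpoint kinase to damage, had the highest ratio of the 28 genes, with 27.7 RPM in rpb4Δ against 5.77 RPM in ubp8Δ, or 4.80-fold (interval 3.47 to 6.60, from 70 and 94 reads). The other checkpoint genes were all under the minimum in both strains. RAD53, the effector kinase, had 1.58 RPM (4 reads) in rpb4Δ and 3.56 RPM (58 reads) in ubp8Δ, RAD24, the loader of the checkpoint clamp, had 0.80 RPM (2 reads) and 1.35 RPM (22 reads) in rpb4Δ and ubp8Δ, and RAD17, a subunit of that clamp, had 0 reads in rpb4Δ and 7 reads (0.43 RPM) in ubp8Δ. At this depth a difference in these 3 genes was not detectable in the window.

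RAD27, the flap endonuclease of Okazaki fragment maturation, was the most abundant of the processing genes, with 92.1 RPM in rpb4Δ and 152 RPM in ubp8Δ (ratio 0.60, interval 0.53 to 0.69). SGS1, the RecQ helicase, had 31.6 RPM in rpb4Δ and 26.4 RPM in ubp8Δ. MUS81 and MMS4 encode the 2 subunits of a nuclease that resolves branched DNA. MUS81 had 28.1 RPM in rpb4Δ against 11.9 RPM in ubp8Δ, or 2.37-fold (interval 1.78 to 3.12), whereas MMS4 had 11.5 RPM in rpb4Δ and 13.3 RPM in ubp8Δ, with an interval of the ratio that includes 1. RAD61, whose protein releases cohesin from chromosomes, had 7.12 RPM in rpb4Δ and 6.21 RPM in ubp8Δ.

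**Figure D1:**
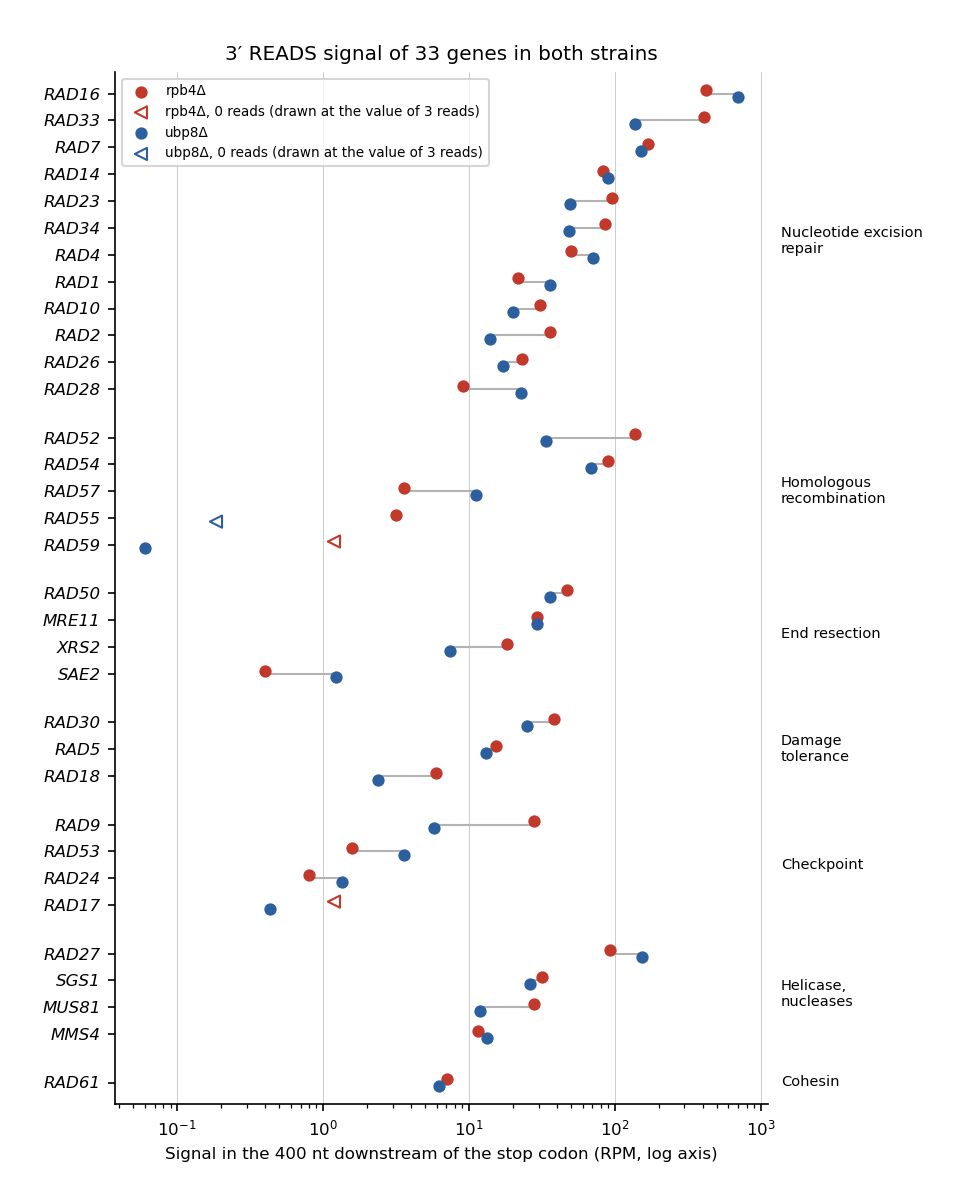
Window signal of 33 genes in RPM on a log axis, grouped by role, with 1 point per strain from 1 pooled profile each (rpb4Δ red, ubp8Δ blue). Triangles mark 0 reads and are drawn at the value of 3 reads, 1.19 RPM in rpb4Δ and 0.184 RPM in ubp8Δ. RAD16 stands highest in both strains, and among genes with reads in both strains the widest gaps with rpb4Δ to the right belong to RAD52 and RAD9.

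Part of the signal of these genes lay upstream of the window, inside the ORF. Summed over the 34 genes, reads inside the ORF made up 6.06% of the reads of ORF and window in rpb4Δ (Wilson interval 5.46 to 6.71%), against 17.3% in ubp8Δ (16.9 to 17.7%). The corresponding shares over all ORFs were 5.14% in rpb4Δ and 10.8% in ubp8Δ. At least 20 reads in ORF and window in both strains were found for 28 of the 34 genes. The share was at least 5 percentage points lower in rpb4Δ for 22 of these 28, beside 48.5% of 4603 ORFs, and at least 5 points higher for 0 of 28, beside 6.43% of ORFs. The median difference was -15.4 points over the 28 genes and -4.48 points over all ORFs. The 34 genes have longer ORFs than most, with a median of 1922 bases against 1206 bases over all ORFs, and ORF length was not tested as a part of this difference.

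The share inside the ORF ranged widely in ubp8Δ. RAD33, the shortest ORF of the group at 534 bases, had 0 ORF reads in both strains, which allows shares of up to 0.292% in rpb4Δ and 0.135% in ubp8Δ. RAD27 had 0.43% in rpb4Δ and 0.96% in ubp8Δ. RAD2 stood at the other end, with 0 of 91 reads in rpb4Δ (which allows up to 3.30%) against 48.6% in ubp8Δ, where 214 reads lay at 20 positions of its ORF. XRS2 had 4.21% in rpb4Δ (1.15 to 13.98%) against 47.2% in ubp8Δ (40.8 to 53.6%). RAD9, a long checkpoint gene, had 30.0% in rpb4Δ (21.9 to 39.6%) against 68.2% in ubp8Δ (62.7 to 73.3%). RAD1 had 6.81% in rpb4Δ against 40.8% in ubp8Δ, and RAD34 had 0.46% in rpb4Δ against 32.1% in ubp8Δ. These 5 genes had the largest differences of the 28. Among the 22 genes with a lower share in rpb4Δ, the intervals of the strains overlapped for 3, RAD61, MMS4 and MRE11.

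A few genes had most of their signal inside the ORF in each strain in which they had reads. RAD24 had 96.5% in rpb4Δ (56 ORF reads at 11 positions) and 96.2% in ubp8Δ (562 ORF reads at 30 positions). RAD55 had 75.8% in rpb4Δ (25 ORF reads) and 100% in ubp8Δ (281 ORF reads at 16 positions). RAD17, under the minimum of reads, had 15 ORF reads in rpb4Δ and 117 in ubp8Δ, beside 0 and 7 reads in its window. RAD59 had no read at all in rpb4Δ, and 14 ORF reads beside 1 window read in ubp8Δ. A level taken from the window alone therefore leaves out most of the reads of these 4 genes. The helicase gene SGS1, with the longest ORF of the group at 4344 bases, had 42.0% in rpb4Δ and 61.2% in ubp8Δ. RAD30 was among the few genes without a lower share in rpb4Δ, with 28.7% in rpb4Δ and 24.1% in ubp8Δ. Where reads lay inside each ORF was not analysed here, and no ORF of the group overlaps another annotated gene on its strand.

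**Figure D2:**
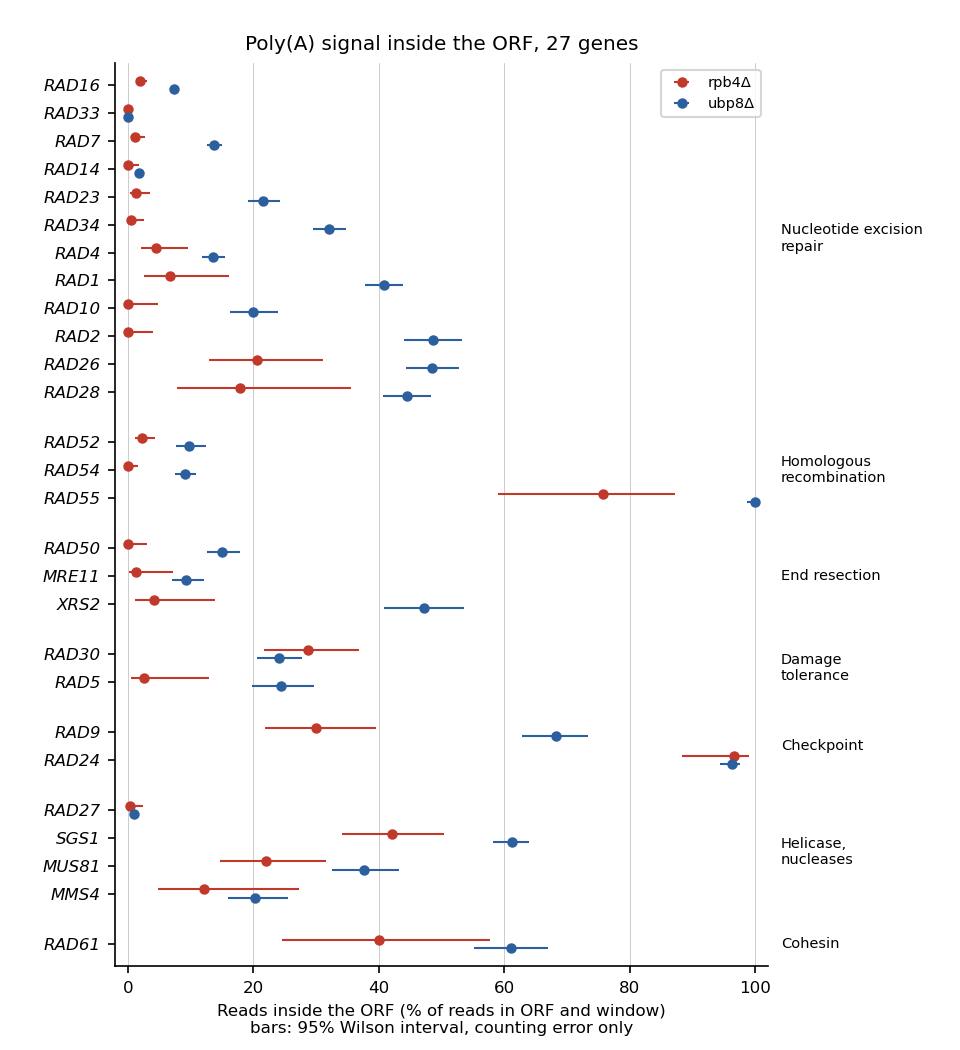
Reads inside the ORF as a percent of the reads in ORF and window, for 27 genes with at least 20 such reads in both strains (rpb4Δ red, above ubp8Δ blue). Bars are 95% Wilson intervals for counting error only. Most red points lie left of the blue ones, RAD24 and RAD55 stand at the right in both strains, and RAD33 is at 0 in both.

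Adding the ORF reads to the window lowered most of the ratios. With window plus ORF, 3 of 31 genes were at least 2-fold higher in rpb4Δ, beside 11.1% of 5200 ORFs, and 3 of 31 were at least 2-fold lower, beside 25% of ORFs. RAD52, RAD33 and RAD9 stayed past 2-fold, with log2 ratios of 1.92, 1.57 and 1.12. For the remaining 4 genes higher in the window, the log2 ratio with the ORF reads was 0.92 for MUS81, 0.43 for XRS2, 0.41 for RAD2 and -0.15 for RAD18. RAD18 had 76 ORF reads in ubp8Δ beside 39 in its window, and 1 ORF read beside 15 in rpb4Δ. RAD55, with 8 window reads in rpb4Δ and 0 in ubp8Δ, had a log2 ratio of -0.40 with the ORF reads. Its totals were 13.05 RPM in rpb4Δ and 17.2 RPM in ubp8Δ. In the other direction RAD1 joined RAD57 and RAD28, with a log2 ratio of -1.37. The median with the ORF reads was -0.13 over the 31 genes and -0.26 over all ORFs, beside the window medians of 0.32 and 0.06 given above.

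**Figure D3:**
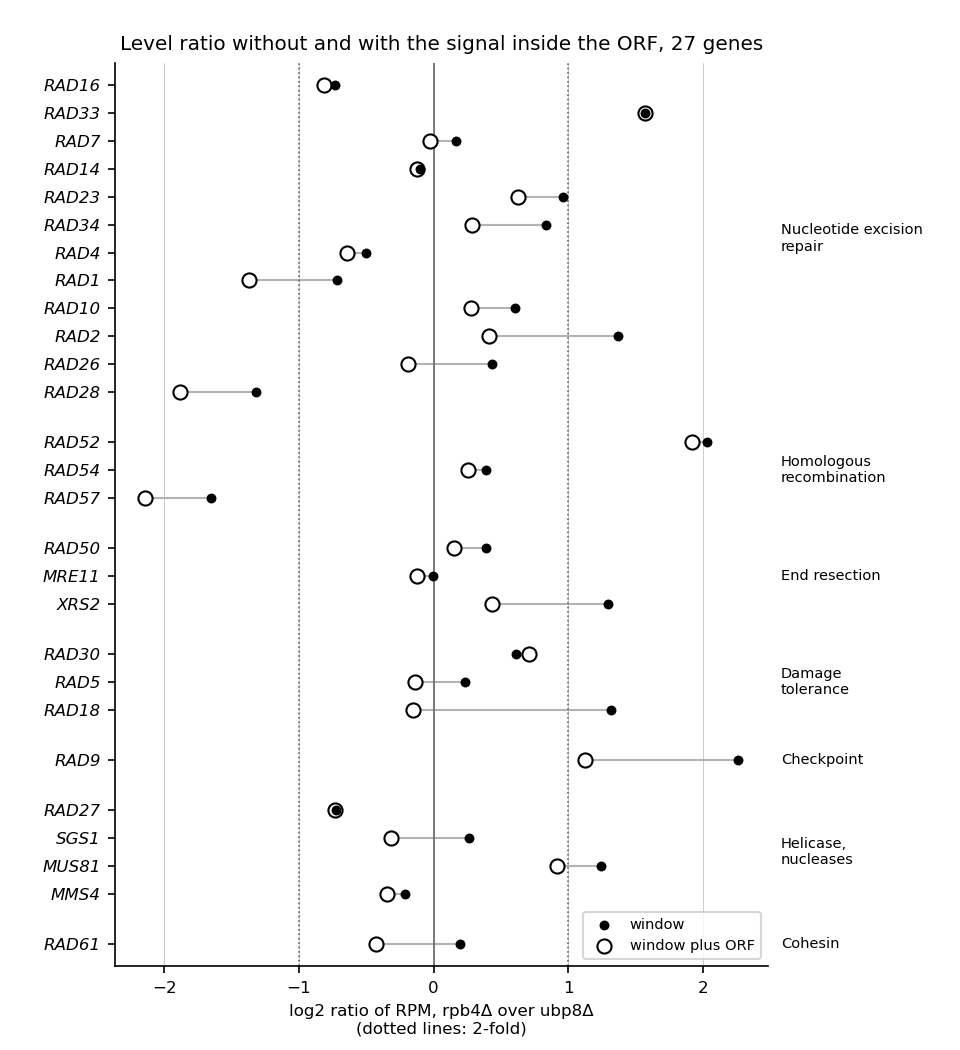
The log2 ratio of RPM, rpb4Δ over ubp8Δ, for 27 genes with a mean window signal of at least 4 RPM, from the window alone (filled) and from window plus ORF (open). Dotted lines mark 2-fold. RAD18, RAD2, XRS2 and RAD9 move furthest to the left when the ORF reads are added, and RAD33 does not move.

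The position of the poly(A) sites was compared for the 25 genes with at least 20 window reads in both strains. The highest nucleotide, the position with the most reads, was the same in both strains for 16 of the 25 genes, beside 60.5% of 4248 ORFs. The weighted average position, the mean distance from the stop codon weighted by the reads, differed by at most 10 nt for 16 of the 25 genes, beside 60.8% of ORFs. It lay at least 20 nt further downstream in rpb4Δ for 5 genes, among them RAD34, SGS1, RAD1 and RAD14, beside 9.06% of ORFs, and at least 20 nt further upstream for 1 gene, XRS2, beside 10.9% of ORFs. The median difference was 0.47 nt over the 25 genes (order-statistic interval over genes -2.74 to 12.1 nt) and -0.57 nt over all ORFs. The averages of the 25 genes spread over most of the window, between 50.7 nt (RAD5) and 348.5 nt (RAD30) in rpb4Δ and between 50.9 nt (RAD28) and 353.5 nt (RAD30) in ubp8Δ.

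Many genes kept the same highest nucleotide, in most cases with similar averages. The excision repair genes RAD16, RAD33, RAD7, RAD4, RAD2, RAD10 and RAD23 kept their highest nucleotides, at 77, 137, 60, 63, 58, 243 and 162 nt. The same was true of RAD52 at 179 nt, RAD54 at 135 nt, RAD50 at 148 nt, RAD30 at 357 nt, RAD9 at 45 nt, RAD27 at 108 nt and MUS81 at 109 nt. XRS2 also kept its highest nucleotide, at 106 nt, but its average differed by -71.3 nt, as described below. The deepest gene, RAD16, had a weighted average of 81.0 ± 0.77 nt in rpb4Δ and 81.5 ± 0.16 nt in ubp8Δ (standard error from the reads). RAD33 had 133.2 ± 0.42 nt in rpb4Δ and 132.7 ± 0.54 nt in ubp8Δ, so its 2.96-fold higher level went with an unmoved average and highest nucleotide. Single sites of RAD33 did differ. The site at 132 nt held 19.8% in rpb4Δ and 8.70% in ubp8Δ, and that at 165 nt held 4.19% in rpb4Δ and 13.5% in ubp8Δ. The averages of RAD52 and RAD9 differed by less than the standard errors of their differences, 3.73 and 2.94 nt. Of the other genes, RAD7, RAD4, RAD2, RAD27 and MUS81 differed by 0.70, -0.74, -2.74, -3.02 and -1.07 nt, RAD54 by 5.47 nt, RAD10 by -6.10 nt, RAD50 by -6.90 nt and RAD23 by 12.1 nt.

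The 4 genes with the largest share of signal at 1 nucleotide, by the mean of both strains, show what such a focused end looks like. They were chosen among the 21 genes with at least 50 window reads in both strains. In rpb4Δ alone, RAD10 and RAD7 had larger shares (61.0% and 59.1%) than MUS81 and RAD2. Each sequence gives 30 bases of the S288C reference genome (R64) on the transcribed strand, with the highest nucleotide as the only capital. No highest nucleotide of the 25 genes is an A, since genomic As next to the tail cannot be told from the tail, and the cleaved base can lie further downstream where As follow.
RAD50, 148 nt: tttaacgcaaagcaattttcttagTaatat
RAD23, 162 nt: aagaaaacagagagatggtaatatTaatct
MUS81, 109 nt: aaagaagccttaatttctcacggaCaaata
RAD2, 58 nt: aacattacctttgtttctgcatgtTaacaa
The RAD50 site (chrXIV:179472-179501, plus strand) held 76.5% of the window reads in rpb4Δ and 77.8% in ubp8Δ, and it lies inside the ORF of the convergent gene MPA43 on the other strand. The RAD23 site (chrV:81240-81269, minus strand) held 62.2% in rpb4Δ and 68.0% in ubp8Δ, between the stop codon and the convergent gene UTR4. The MUS81 site (chrIV:1248067-1248096, plus strand) held 56.3% in rpb4Δ and 71.0% in ubp8Δ, before the convergent gene CIN10. The RAD2 site (chrVII:1007608-1007637, minus strand) held 56.0% in rpb4Δ and 69.5% in ubp8Δ, before the tandem gene MTM1. All 4 capitals are followed by an A, as were the highest nucleotides of 23 of the 25 genes in rpb4Δ and 24 in ubp8Δ, beside 91.0% and 91.3% of the 4248 ORFs in rpb4Δ and ubp8Δ.

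Of the 4 genes with the largest differences in weighted average among the same 21, RAD34, SGS1 and RAD1 are shown in the same way, with a line for the highest nucleotide of each strain.
RAD34 in rpb4Δ, 292 nt: gaaataacctgatcaaacactgtaCactac
RAD34 in ubp8Δ, 107 nt: agcgtatggaagcctgtgcataatCatatc
SGS1 in rpb4Δ, 292 nt: aatgcgtcaactaatatacatataCaacat
SGS1 in ubp8Δ, 52 nt: ataactacgacaccattcgccaagCattct
RAD1 in rpb4Δ, 325 nt: tggcattagtgaatcattttaagcCaaatt
RAD1 in ubp8Δ, 211 nt: cactcaaatttttcatatcatccgCaattc
All of these sites lie between the stop codon and the next annotated gene. The RAD34 sites are at chrIV:1090136-1090165 and chrIV:1090321-1090350 (minus strand), the SGS1 sites at chrXIII:640618-640647 and chrXIII:640858-640887 (minus strand), and the RAD1 sites at chrXVI:510300-510329 and chrXVI:510186-510215 (plus strand), each with the rpb4Δ site first.

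RAD34 had the largest difference. Its weighted average lay at 248 ± 6.08 nt in rpb4Δ (218 reads) and 125.5 ± 3.05 nt in ubp8Δ (785 reads), a difference of 122.8 nt. The site at 292 nt held 30.7% of the signal in rpb4Δ against 3.69% in ubp8Δ, and the site at 107 nt held 5.05% in rpb4Δ against 25.2% in ubp8Δ. Positions beyond 200 nt together took 79.8% in rpb4Δ (74.0 to 84.6%) and 18.5% in ubp8Δ (15.9 to 21.3%). Both regions were thus used in both strains in very different proportions. The rpb4Δ site lies 62 nt before the start codon of the tandem gene PIB1, whose ORF begins within the window.

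SGS1 ended further downstream in rpb4Δ too, at 171 ± 9.11 nt (80 reads) against 117 ± 3.93 nt in ubp8Δ (429 reads), a difference of 53.8 nt. Its highest nucleotide at 52 nt in ubp8Δ held 30.5% there and 6.25% in rpb4Δ, while the nucleotide at 292 nt held 17.5% in rpb4Δ and had 0 of 429 reads in ubp8Δ.

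RAD1 had a weighted average of 236 ± 12.0 nt in rpb4Δ (55 reads) and 195 ± 4.16 nt in ubp8Δ (582 reads), a difference of 40.9 nt. The site at 325 nt held 25.5% in rpb4Δ (14 reads) and 0.86% in ubp8Δ (5 reads), whereas that at 211 nt held 7.27% in rpb4Δ and 15.8% in ubp8Δ. By the weighted median position, RAD1 differed by 7 nt, under the limit of 20 nt. RAD14 was just past the limit, at 192 ± 7.26 nt in rpb4Δ and 169 ± 2.21 nt in ubp8Δ, a difference of 22.8 nt. Its highest nucleotide took the smallest share of the 25 genes in ubp8Δ, with 20.4% in rpb4Δ (62 nt) and 9.97% in ubp8Δ (53 nt). With positions 1 to 300 only, the difference of RAD14 was -7.62 nt, and with positions followed by a genomic A left out it was -6.08 nt, so its direction depends on these choices.

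XRS2 stood alone in the other direction, at 106 ± 0.65 nt in rpb4Δ (46 reads) and 177 ± 9.23 nt in ubp8Δ (121 reads), a difference of -71.3 nt. The highest nucleotide at 106 nt was shared, with 80.4% of the signal in rpb4Δ and 24.8% in ubp8Δ. Positions beyond 300 nt held 30.6% in ubp8Δ (23.1 to 39.3%) and 0 of 46 reads in rpb4Δ, which allows up to 6.52%. These distal positions lie opposite the convergent gene YPR1. With positions 1 to 300 only, the difference of XRS2 was -6.11 nt, and by the weighted median position it was -6 nt.

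**Figure D4:**
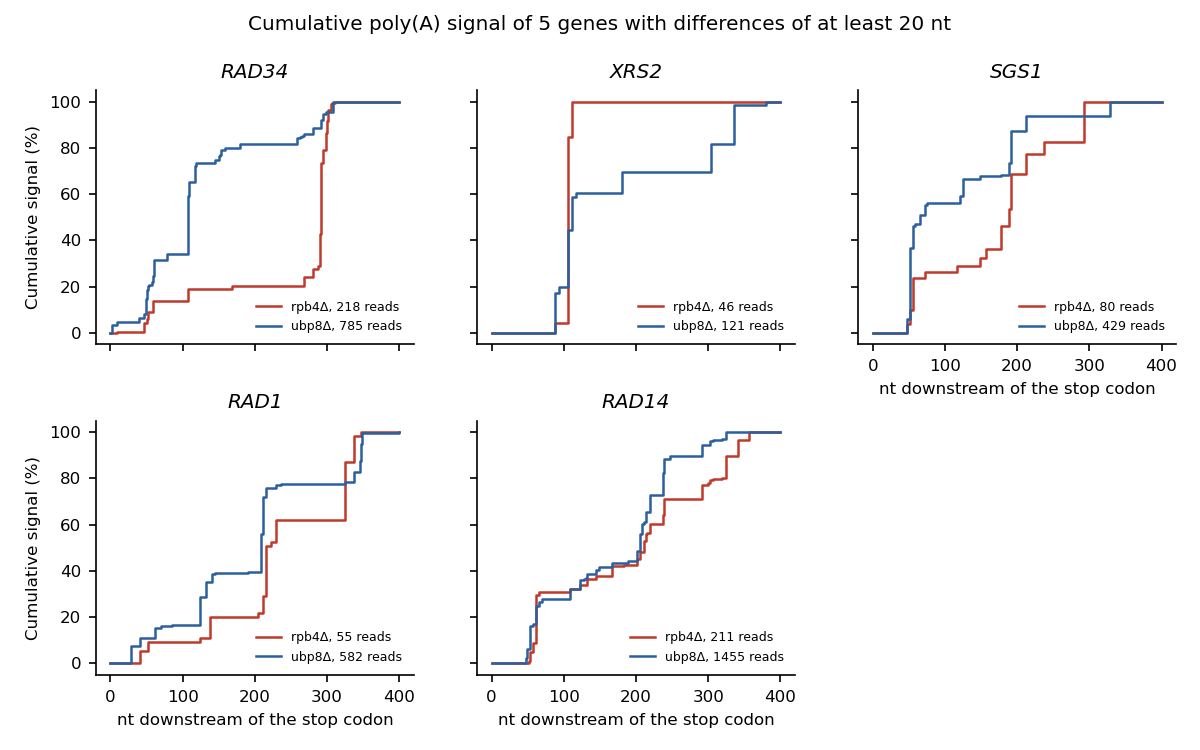
Cumulative signal along the window, in percent of the window reads, for 5 genes with a difference in weighted average of at least 20 nt (rpb4Δ red, ubp8Δ blue, window reads in the legends). RAD34 climbs most at 292 nt in rpb4Δ and at 107 nt in ubp8Δ, and XRS2 reaches 100% before 200 nt in rpb4Δ only.

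Between these groups lay the genes with a different highest nucleotide but averages less than 20 nt apart. Their profiles overlapped only in part. Signal overlap sums the smaller of the shares of both strains at each nucleotide. It was 60.8% for RAD26, 53.7% for RAD5, 33.7% for MRE11, 25.1% for MMS4 and 21.7% for RAD28, beside a median of 65.7% over all ORFs. In rpb4Δ these genes had 58, 39, 74, 29 and 23 window reads. A low read number by itself lowers this overlap, and the overlap was not brought to equal read numbers. RAD26 had its highest nucleotide at 149 nt in rpb4Δ and 155 nt in ubp8Δ, with averages of 136 and 141 nt. RAD5 had 46 nt in rpb4Δ and 71 nt in ubp8Δ, with averages that differed by -6.27 nt. MRE11 had 113 nt in rpb4Δ and 128 nt in ubp8Δ, with weighted averages of 114.8 ± 2.44 nt in rpb4Δ and 105.8 ± 1.63 nt in ubp8Δ. The neighbour of MRE11 is UBP8 itself, a convergent gene that was replaced by HIS3 in the ubp8Δ strain. The stop codon end of the UBP8 ORF lies 45 nt beyond the MRE11 window. The part of the HIS3 replacement in the MRE11 values was not tested. MMS4 had 178 nt in rpb4Δ and 301 nt in ubp8Δ, with averages of 232 ± 10.1 nt and 214 ± 7.13 nt in rpb4Δ and ubp8Δ, and RAD28 had 43 nt in rpb4Δ and 24 nt in ubp8Δ, with averages of 68.2 ± 12.1 nt and 50.9 ± 3.07 nt. Both of these genes rest on under 30 reads in rpb4Δ (29 and 23), and their differences of 18.6 and 17.3 nt are under 2 standard errors.

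**Figure D5:**
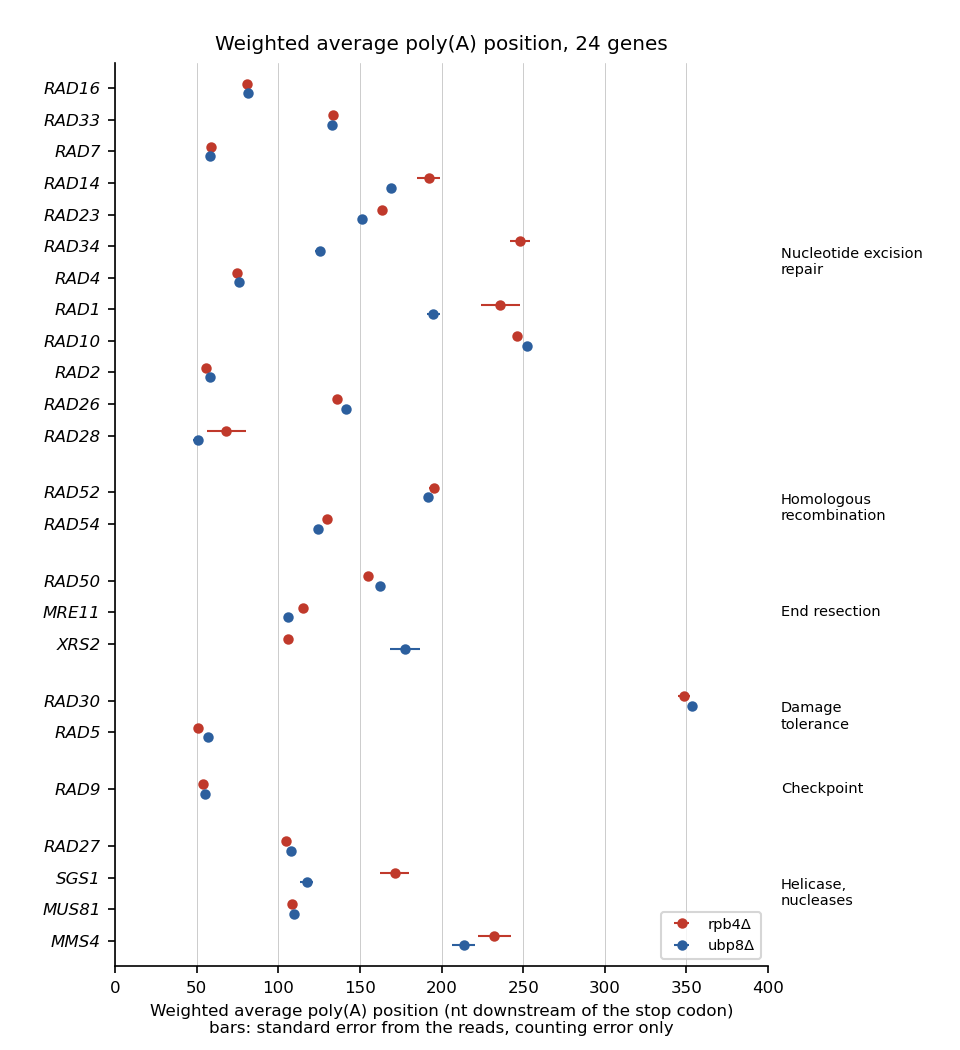
Weighted average poly(A) position of 24 genes with at least 20 window reads in both strains, in nt downstream of the stop codon (rpb4Δ red, above ubp8Δ blue). Bars are standard errors from the reads. RAD34, SGS1 and RAD1 lie further downstream in rpb4Δ, XRS2 lies further upstream, and 16 of the genes are within 10 nt.

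The number of poly(A) sites, counted as nucleotides with any signal, had a median of 11 per gene in rpb4Δ and 16 in ubp8Δ over the 25 genes, against 13 and 19 over all ORFs in rpb4Δ and ubp8Δ. A deeper library shows more of the weak sites. At the read number that each gene had in rpb4Δ, the expected number in ubp8Δ had a median of 11.9, and 16 of the 25 genes had fewer sites in rpb4Δ than expected while 9 had more, beside 66.2% and 33.8% of ORFs. RAD16 had the most, with 34 sites in rpb4Δ and 47 in ubp8Δ (35.1 expected at the rpb4Δ reads). XRS2 had the fewest in rpb4Δ, with 3 sites there and 9 in ubp8Δ (8.0 expected), and RAD50 had 4 and 12 (8.58 expected). Most of the signal fell on shared nucleotides, since a median of 90.9% of the rpb4Δ reads and 80.9% of the ubp8Δ reads of a gene lay at sites seen in both strains, against 94.4% and 88.1% over all ORFs.

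The gene arrangement around the 34 genes varied. An annotated gene on the same strand begins within the window of 7 genes, and one on the other strand lies within the window of 18. Among the 25 genes with a position, the highest nucleotide lay opposite the ORF of another gene for 3 genes in rpb4Δ (RAD10, RAD26 and RAD50) and 4 in ubp8Δ (these and MMS4), beside 11.9% and 12.2% of ORFs in rpb4Δ and ubp8Δ. RAD10 overlaps its convergent neighbour YML096W, so its shared site at 243 nt, with 61.0% of the signal in rpb4Δ and 30.6% in ubp8Δ, lies inside that ORF.

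Elements known from yeast terminators were searched on the transcribed strand within 100 nt upstream of the highest nucleotide. TATATA, the strongest efficiency element, was found for 11 of the 25 genes in rpb4Δ and 12 in ubp8Δ, beside 45.0% and 43.6% of the 4248 ORFs. RAD1 made the difference, since the letters lie upstream of its ubp8Δ site at 211 nt but not within 100 nt of its rpb4Δ site at 325 nt. TACATA was found for 5 genes in each strain and TATGTA for 5, beside 22.3% and 22.4% of ORFs in rpb4Δ. The positioning elements AATAAA and AAGAAA were found for 6 and 7 genes in each strain, beside 18.8% and 11.2% of ORFs in rpb4Δ. The genes with AAGAAA upstream of the rpb4Δ site were RAD34, MUS81, RAD23, RAD4, RAD2, RAD5 and RAD14. Each element was counted on its own, also where it overlaps another. In the printed stretches TACATA occurs once, ahead of the SGS1 site of rpb4Δ, and AAGAAA once, ahead of the RAD23 site.

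A list of 59 other repair genes, from mismatch and base excision repair to end joining, was read in the same way. Of the 49 with enough signal, 13 were at least 2-fold higher in rpb4Δ, beside 17.7% of all ORFs, and 7 at least 2-fold lower, beside 16.6%. To name examples only, MEC1, the checkpoint kinase above RAD53, was among the higher ones, and PHR1, the photolyase, among the lower ones. The share inside the ORF was at least 5 points lower in rpb4Δ for 32 of 46, beside 48.5% of ORFs. It was at least 5 points higher for 6, beside 6.43%. Of the 42 with a position, 4 lay at least 20 nt further downstream in rpb4Δ (9.06% of ORFs) and 2 further upstream (10.9%). The highest nucleotide was kept by 23 of the 42, beside 60.5% of ORFs.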

How the data were processed

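The 3′ READS profiles of rpb4Δ and ubp8Δ were analysed, and the NET-seq samples of the series were not used here. According to the paper's methods, the authors removed the Ts that open each read, mapped the 17 bases after them to SacCer3 by bowtie (1 place in the genome, no mismatch) and required tail As beyond any genomic ones. The submitters' processing notes name Bowtie, cutadapt and TopHat2 without versions. The deposited window, highest-position and ORF values are RPM of the authors, and each nucleotide of a window carries its signal as a percent of that at the gene's highest nucleotide. The deposited ORF percent was recomputed from the RPM values and differed by at most 0.005 points. Each strain has 1 pooled profile.

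Whole reads were recovered from the RPM of 1 read. All of the 151 and 824 distinct highest-position values below 60 RPM in rpb4Δ and ubp8Δ came out whole within 0.0051 RPM, which is 0.013 reads in rpb4Δ and 0.083 reads in ubp8Δ. No count test was run, because a test on reads would compare 2 libraries only. A count of 0 was set to 3 reads for ratios. Expected site numbers at a lower read number are exact hypergeometric values. Bases and neighbours came from R64, in which all 34 genes, and 5787 of 5795 ORFs found, have the start and end of the profiles. Up to 11.5% of the 17-base sequences of a window (RAD23) occur more than once in the genome. Python 3.11.15, numpy 2.4.6, pandas 2.3.3, scipy 1.17.1 and matplotlib 3.10.9 were used, and the functions were tested on simulated data.

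The genes, lists, thresholds and alternatives were chosen with earlier results of these data known. Every gene but 1 is named with its window RPM. The values of that gene are not reported here, and it remains in the counts, sums and medians. Genes with at least 20 window reads in both strains also have positions, and sequences are printed for the 4 largest shares at 1 nucleotide (mean of both strains) and for 3 of the 4 largest differences in weighted average among genes with at least 50 reads in both. Alternatives changed the scaling, the signal used, the filters, the definition of position and site, and the genes included.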

Additional observations from a re-analysis of the deposited data

How the results depend on the processing

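No paired analysis was possible because the replicates of each strain were pooled into 1 profile, and for the same reason no replicate could be left out. Scaling to the reads in all ORF windows or to a median ratio of 1 changed none of the level counts, and the 7 and 2 genes named stayed the same under both. The 7 of 28 genes higher in rpb4Δ became 3 of 31 with window plus ORF (11.1% of ORFs) and 3 of 18 with a mean of at least 20 RPM (16.6% of ORFs). By the highest position in place of the window 7 of 28 were higher (22.3% of ORFs), but RAD18 (log2 ratio 0.43) and MUS81 (0.91) were no longer among them, and RAD34 and RAD10 were. The 2 lower genes became 1 of 28 by the highest position (15.8% of ORFs), 4 of 34 without a filter (18.2%) and 0 of 18 at 20 RPM (13.5%). The median log2 ratio was -0.13 with window plus ORF, where RAD18 turned to -0.15. The 5 of 25 genes further downstream became 3 of 25 by the highest site (9.93% of ORFs), 2 of 25 by the weighted median (7.91%; RAD1 at 7 nt) and 2 of 10 without positions followed by a genomic A (9.84%). The 1 gene further upstream, XRS2, was replaced by 2 of 25 by the highest site (MMS4 and RAD5, 10.5% of ORFs). By the weighted median it was replaced by 1 of 25 (MMS4, 9.49%), although the weighted average of MMS4 lay downstream in rpb4Δ. XRS2 itself differed by 0 nt by the highest site and by -6 nt by the weighted median. The upstream count was 0 of 24 with positions 1 to 300 (8.59%) and 3 of 31 without a minimum (14.3%). With at least 50 reads it was 0 of 21 (8.76%), since XRS2 has 46 in rpb4Δ. RAD14 turned to -7.62 nt with positions 1 to 300 and to -6.08 nt without positions followed by a genomic A. RAD34 and SGS1 stayed past 20 nt downstream under every definition for which they had enough reads. The median number of sites was 4 in rpb4Δ and 5 in ubp8Δ for sites of at least 5% of the signal, 4 in each with sites within 10 nt merged, 11 in ubp8Δ for sites of at least 1%, and 11.9 in ubp8Δ at the rpb4Δ read number. The share inside the ORF was 2.50% in rpb4Δ and 22.8% in ubp8Δ as the median over genes, and 5.16% in rpb4Δ without SGS1 and 22.1% in ubp8Δ without RAD16, the genes with the most ORF reads. An alternative chosen after seeing the data, without RAD16 in both, gave 7.03% in rpb4Δ and 22.1% in ubp8Δ. The causes were not tested. For the group, 36 values stayed the same, a count within 1.5-fold or a median or share within its interval, and 25 moved. Of the values for single genes, 76 kept their direction and call, 14 fell short of the size of the call, and 3 changed sign, as given above. A change of filter or of the genes included leaves the value of a gene as it was, so many of the 76 were fixed in advance. Scaling shifts all genes by the same amount. Depth in rpb4Δ limits the genes with the fewest reads most.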
